A study of Mus musculus with 16 samples.

Results

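Transcripts of 9 transient receptor potential (TRP) channels were followed in embryonic mouse sensory ganglia: Trpv1, Trpv2, Trpa1, Trpm8, Trpm2, Trpm3, Trpm7, Trpc1 and Trpc6. They were chosen by name and not by a cut on any measured value, though earlier results of these data were known. They are 9 of the 24421 gene symbols in the count table. All 9 had reads, 8 passed the filter on low counts, and Trpm8 did not. The tissue was lumbar dorsal root ganglia, which hold the cell bodies of the sensory neurons, taken from C57BL/6 embryos at embryonic day 13.5 and sequenced as polyA RNA. The 16 libraries form 4 groups of 4. KO_alpha3 lacks importin alpha3 (gene Kpna4), KO_beta is a knockout of the 3′UTR of importin beta 1 (gene Kpnb1), and WT_alpha3 and WT_beta are the wild types titled with either line. The series asks what these nuclear import proteins do in peripheral sensory neurons, and its design text has all 8 wild types serve both projects. The labels give neither how the alleles were made nor the cells in which they act, and none of the groups received a treatment.

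TRP channels are cation channels of the plasma membrane and of internal membranes. Several of them turn heat, cold or chemical irritants into electrical signals in the endings of pain- and temperature-sensing neurons, while others serve magnesium uptake, calcium entry after receptor activation, or the response to oxidative stress. In the mouse ganglion the neurons that will carry Trpv1 are born late and acquire their channels as they mature.

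The promoter table used here (RefSeq, build GRCm38.p6, 300 bases around each start) held 8 of the 9 members in 11 windows, and Trpa1 was missing from it. Its starts can differ from the gene bounds given below, which are those of GENCODE M21. For 8 of the 11 windows the last 40 bases were found in an annotated transcript of the gene, and for the windows of Trpv1, Trpm7 and Trpm2 they were not. In these windows 5 letter patterns, none of which contains another, were searched on both strands. The E-box CANNTG was found in all members with a window but Trpc6 (72.3% of the 32841 promoter windows of the build hold it), and TATAAA in Trpm8, Trpm2 and Trpv2 (13.6% of windows). GGGCGG was found in Trpc1 and Trpm2 (35.7%) and TAATTA in Trpm8 (5.29%). The fifth was TGTGGT, the core letters bound by RUNX factors, which include the nociceptor factor Runx1. It was found in Trpv1, Trpv2 and Trpm3 and in none of the other 5 members with a window, and 16.8% of windows hold it. That share is per window, and Trpv2 and Trpm3 have more than 1 window each. Windows 1 and 2 of Trpv2 held the pattern and window 3 did not, and window 2 of Trpm3 held it and window 1 did not. The Trpv2 site lies after the start of window 1 (bases 25 to 30) and across that of window 2 (-3 to 3). This pattern is shown because these 3 members were lower in earlier ganglia, and it was picked from the 5 after the search. Each stretch is 30 bases long, with the pattern in capitals, written 5′ to 3′ on the strand of the gene. For Trpm3, the pattern lies on the opposite strand and reads ACCACA here.
Trpv1 (chr11:73234087-73234116, + strand): tggggcattggcTGTGGTttctgaaaaagg
Trpv2 (chr11:62574498-62574527, + strand): agagcaggaagcTGTGGTagaggctggcct
Trpm3 (chr19:22448030-22448059, + strand): cctctgactccgACCACAggctgttttgtg

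The 30 bases just before the start in the table are shown for Trpv1, which had the highest coefficient of variation of the 8 members that passed the filter, and for 2 that varied little or moderately, Trpm7 and Trpc1. The starts of Trpv1 and Trpm7 are those whose windows did not match a transcript. CG dinucleotides are in capitals.
Trpv1 (chr11:73234119-73234148, + strand): aaaaatgatgggaaaagctttgggatcctc
Trpm7 (chr2:126876262-126876291, - strand): cccttcaCGtgacaCGccctcCGCGCGaCG
Trpc1 (chr9:95750349-95750378, - strand): cttaagcccCGcccCGgtgtCGtCGcctcc

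The stretch of Trpv1 holds 0 CG dinucleotides, that of Trpm7 holds 6 and that of Trpc1 holds 4. Over the whole 300-base window the count of CG dinucleotides was 4 for Trpv1 and 1 for Trpm8, 35 for Trpm7, 22 for Trpc1, 17 for Trpc6 and 15 for Trpm2, against a median of 7 (quartiles 3 and 20) over all windows. The 3 windows of Trpv2 held 2, 2 and 7, and the pair of Trpm3 windows held 21 and 10. Neither the pattern nor the CG count divided the members that passed a test below from those that did not: Trpc1 and Trpm2 passed without the pattern. These letters describe the windows, and nothing measured here shows binding or methylation.

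Total counts per library ran from 19682595 to 26873361. Kpna4 held 14 to 27 reads in the 4 KO_alpha3 libraries and at least 1348 in each of the other 12, which checks that label, whereas a count over the whole Kpnb1 gene does not check a deletion within its 3′UTR. Whether each library is a separate embryo is not labelled, and the p-values then describe only how these samples scatter, which may be technical. The maturity of each ganglion was read from red blood cell transcripts, as log2(Hbb-bh1 / Hbb-y) on counts plus 0.5. Both are embryonic globins, Hbb-bh1 is shut down before Hbb-y, and a higher ratio therefore marks an earlier embryo. The ratio ran from -6.99 in KO_beta 411 to -3.71 in KO_alpha3 81, on 49 to 6678 reads of Hbb-bh1. Its group means were -5.41 ± 1.33 in KO_alpha3, -5.63 ± 1.39 in WT_alpha3, -6.18 ± 0.76 in WT_beta and -6.46 ± 0.39 in KO_beta (SD, n = 4 each). It did not differ beyond its spread between KO_alpha3 and the 8 wild types (exact 2-sided permutation p = 0.507), KO_beta and the 8 wild types (exact permutation p = 0.372) or the 2 sets of wild types (exact permutation p = 0.514). Of the markers of the labelled tissue, all 22 pan sensory neuron genes found in the table passed the filter. So did all 17 skeletal muscle and all 10 liver genes listed, and 15641 of all 24421 genes, so passing the filter does not check the label. Hoxa10, a homeobox gene expressed at lumbar and more posterior levels of the body axis, was at 0.877 CPM in KO_alpha3 81, 1.89 in WT_beta 399 and 4.38 in WT_alpha3 79, against 22.5 to 84.5 CPM in the other 13 libraries. These 3 libraries therefore go against the lumbar label by this gene, and results are given below with and without them.

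Per length of transcript, Trpv1, Trpv2 and Trpm7 had the 3 highest mean levels. Levels are CPM, counts scaled to library size after TMM normalization, and here CPM per kb of merged exons, the scale on which levels of different genes are compared. Trpv1, the capsaicin- and heat-gated channel, had 22.7 ± 13.9 CPM per kb (SD, n = 16 libraries), Trpv2, its relative in the same subfamily, 11.2 ± 1.73, and Trpm7, a magnesium-conducting channel fused to a kinase, 6.43 ± 0.489. The mean of Trpv1 was the highest of the 9, but its libraries ran from 0.709 to 41.3 CPM per kb and enclosed those of Trpv2 (7.58 to 14.0) and Trpm7 (5.73 to 7.63), so these neighbours did not differ beyond the spread of Trpv1. Its lowest library also lay below every Trpc1 library (0.913 to 2.16). The lowest Trpv2 library, at 7.58, lay just under the highest Trpm7 library, at 7.63, so the ranges of these neighbours met only at their ends. Trpc1 followed at 1.63 ± 0.412, Trpm2 at 1.05 ± 0.229 and Trpm3 at 0.573 ± 0.209 CPM per kb, and the ranges of these 3 overlapped one another. Trpc6 (0.178 ± 0.0686), Trpa1 (0.0738 ± 0.0416) and Trpm8 (0.0182 ± 0.0199) were the lowest.

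**Figure D1:**
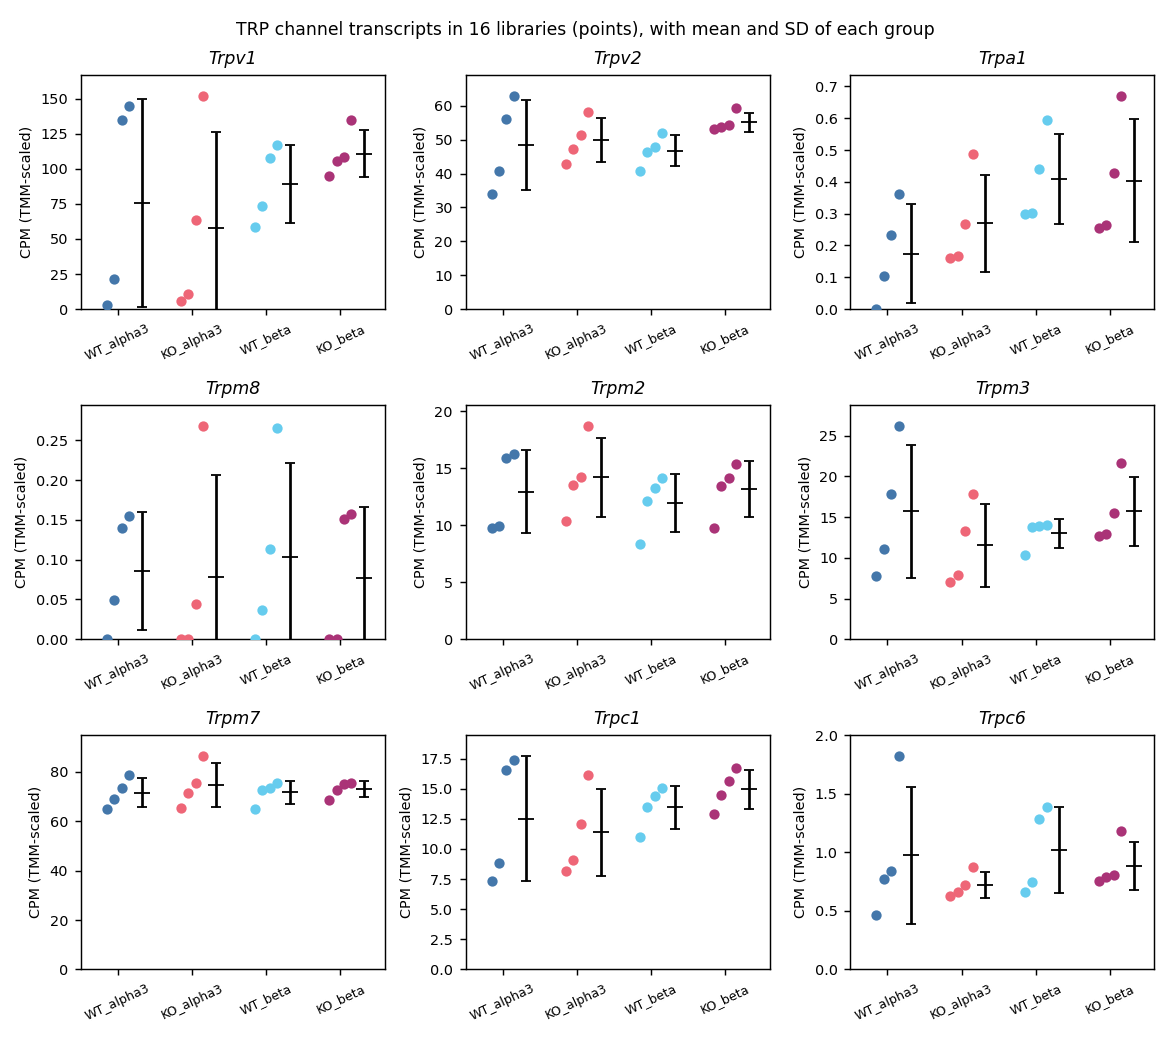
CPM (y axis, from 0, 1 panel per gene) of the 9 channels in the 4 groups (x axis), with each library as a point, the horizontal tick at the group mean and the bar at ± 1 SD (n = 4; lower ends under 0 are not drawn). Trpv1 spans 2.61 to 152 CPM and is spread widest within WT_alpha3 and KO_alpha3, while Trpm7 stays between 64.9 and 86.3 CPM in all 16 libraries.

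Trpv1 (chromosome 11, 73234292 to 73261242, + strand, GRCm38) encodes the channel that opens to noxious heat, acid and capsaicin and marks many pain-sensing neurons. In WT_alpha3 its level was 135 CPM in library 54, 145 in 55, 21.7 in 45 and 2.61 in 79. In KO_alpha3 it was 152 CPM in library 50, 63.7 in 75, 10.8 in 42 and 5.47 in 81. Each of these groups thus held both high and nearly silent libraries. In WT_beta it was 117 CPM in library 410, 108 in 415, 73.4 in 399 and 58.3 in 401. KO_beta was the most even, with 135 CPM in library 411, 109 in 406, 106 in 402 and 94.7 in 398. The reads behind these values ran from 53 to 3413, and the highest library stood 58.3-fold above the lowest. No group stood apart, since the range of each overlapped that of every other group.

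The order of the Trpv1 levels broadly followed the globin ratio of the same library. In the 9 libraries with the lowest ratios, -6.99 to -6.06, Trpv1 lay at 94.7 to 152 CPM. In the 3 that follow, -6.04 to -5.17, it lay at 58.3 to 73.4 CPM, and in the 4 with the highest ratios, -5.10 to -3.71, at 2.61 to 21.7 CPM. Those last 4 were all of the alpha3 line, KO_alpha3 42 and 81 and WT_alpha3 45 and 79. At nearly the same ratio, WT_beta 399 (-5.17) held 73.4 CPM and KO_alpha3 42 (-5.10) held 10.8 CPM. Fitted to the 4 libraries of a group alone, with no test, the slope of Trpv1 was negative in every group: -1.61 in KO_alpha3, -1.87 in WT_alpha3, -0.55 in KO_beta and -0.44 in WT_beta, in log2 CPM per unit of the log2 ratio. Over all 16 libraries, with a term for each group, the slope was -1.41 ± 0.19 (SE; edgeR, Benjamini-Hochberg adjusted p = 7.99e-05). That is a 2.65-fold fall for each unit of the ratio. Of the 15641 genes tested, 16 had a lower slope than Trpv1. In KO_alpha3 the libraries lowest in Trpv1, 42 and 81, had nearly no Y-linked reads (0.320 and 0.0418 CPM) while 50 and 75 had 148 and 133 CPM of them, and with Y-linked reads in the fit the slope was -1.22 ± 0.21 (edgeR adjusted p = 0.0011). Hoxa10 moved with the ratio too (-1.23 ± 0.34, edgeR adjusted p = 0.0085), and the 2 libraries of highest ratio are among the 3 that nearly lack it. Without those 3 the slope of Trpv1 was -1.46 ± 0.17 (edgeR adjusted p = 4.66e-05), and with Hoxa10 in the fit it was -1.92 ± 0.24 (edgeR adjusted p = 2.37e-05), both added after seeing the data.

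**Figure D2:**
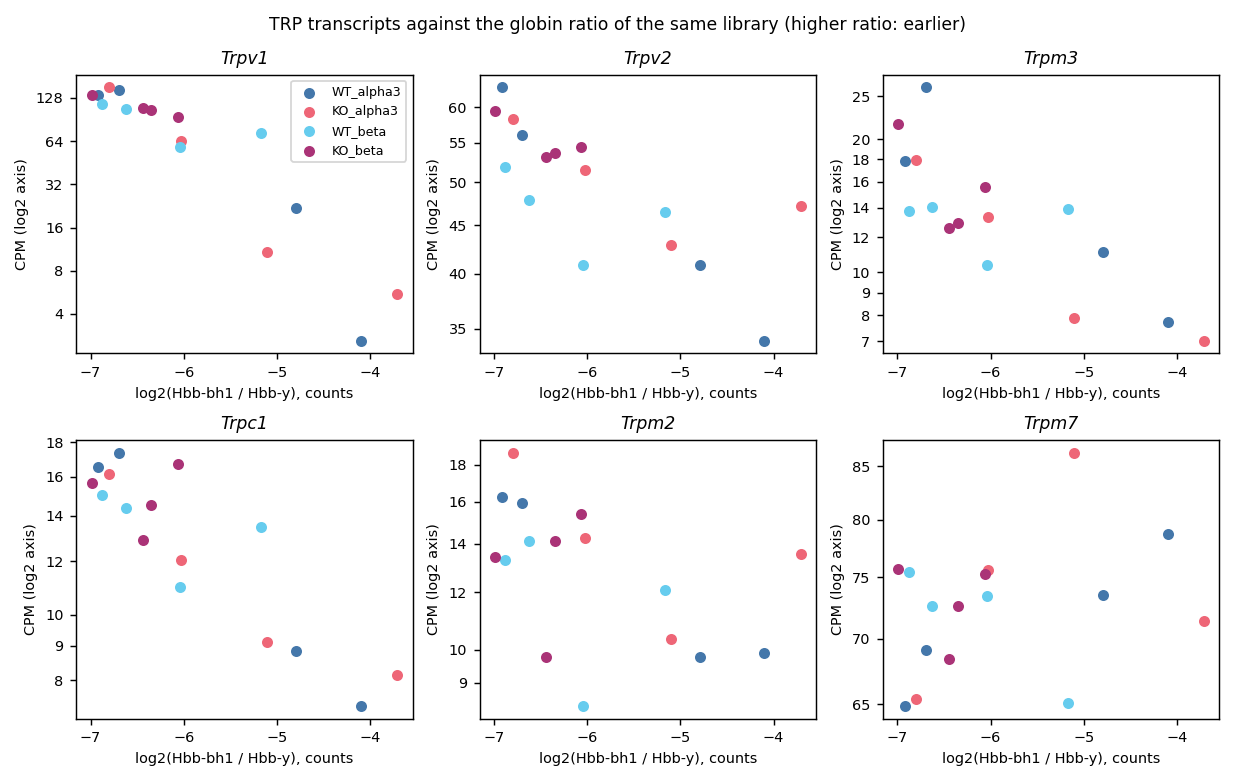
CPM on a log2 y axis against the log2 ratio of Hbb-bh1 to Hbb-y counts (x axis, to the right: earlier), for 6 channels, each point a library coloured by its group. Trpv1 descends from 152 to 2.61 CPM as the ratio rises, Trpm3, Trpc1 and Trpv2 descend less, Trpm2 is scattered, and Trpm7 is level.

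In the same fit, 5 of the 8 members tested passed, all lower in earlier ganglia, and 0 were higher. This share of 62.5% stands against a background of 46.6% of all genes that passed (26.1% lower, 20.5% higher), so a passing gene was common in this fit. The median slope of the 8 members was -0.26, against -0.01 over all genes. In bulk tissue, fewer cells of a type and less RNA per cell cannot be told apart, and this holds for every slope given here. Followed across libraries, and not as a comparison of the genes' levels, the ratio of Trpv1 CPM to Trpv2 CPM ran from 0.0767 in WT_alpha3 79 to 2.61 in KO_alpha3 50.

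Trpm3 (chromosome 19, 22139046 to 22995410, + strand), a heat- and neurosteroid-gated channel of sensory neurons, was the next steepest member to pass. Its level was 26.2 CPM in WT_alpha3 55, 17.9 in 54, 11.1 in 45 and 7.73 in 79. In KO_alpha3 it was 17.9 CPM in library 50, 13.4 in 75, 7.87 in 42 and 7.02 in 81. In both groups the order of the libraries was that of Trpv1. KO_beta held 21.7 CPM in library 411, 15.6 in 398, 12.9 in 402 and 12.6 in 406. WT_beta held 14.0 CPM in 415, 13.9 in 399, 13.7 in 410 and 10.4 in 401. The slope was -0.43 ± 0.08 (edgeR adjusted p = 0.000627), and it was negative in each group, from -0.63 in KO_beta to -0.03 in WT_beta. Exons of Trpm3 overlap a lincRNA and an antisense gene, C330002G04Rik and Gm27151, whose reads cannot be separated from it without a stated strand setting.

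Trpc1 (chromosome 9, 95705082 to 95750375, - strand) encodes a subunit that assembles with other TRPC channels downstream of receptors that activate phospholipase C. It was measured at 17.4 CPM in WT_alpha3 55, 16.5 in 54, 8.85 in 45 and 7.33 in 79. KO_alpha3 held 16.2 CPM in library 50, 12.1 in 75, 9.11 in 42 and 8.15 in 81. Levels in KO_beta were 16.7 CPM in library 398, 15.7 in 411, 14.5 in 402 and 12.9 in 406, and in WT_beta 15.04 in 410, 14.4 in 415, 13.5 in 399 and 11.0 in 401. The 4 libraries of highest globin ratio, all of the alpha3 line, were the 4 lowest in Trpc1. Its slope was -0.33 ± 0.06 (edgeR adjusted p = 0.000341). Within groups it was negative in 3 of 4, the slope in KO_beta being 0.04.

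Trpv2 (chromosome 11, 62574486 to 62600515, + strand) encodes a cation channel of the vanilloid subfamily found in sensory and motor neurons. Its libraries ran from 34.0 CPM in WT_alpha3 79 to 63.0 in WT_alpha3 54, a 1.85-fold range. KO_beta held 59.4, 54.4, 53.7 and 53.1 CPM in libraries 411, 398, 402 and 406. WT_beta held 51.9, 47.9, 46.5 and 40.8 CPM in libraries 410, 415, 399 and 401. The log2 fold change of KO_beta against WT_beta alone was 0.24 ± 0.16 and did not pass (edgeR adjusted p = 1.00). All 4 KO_beta libraries held 132 to 142 CPM of Y-linked reads and all 4 WT_beta libraries 0 to 1.15, so sex and genotype cannot be told apart in that contrast. The 8 wild types together enclosed the KO_beta levels. The slope on the globin ratio was -0.18 ± 0.04 (edgeR adjusted p = 0.00128), negative within all 4 groups (-0.29 to -0.09).

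Trpm2 (chromosome 10, 77907722 to 77970563, - strand), a channel opened by ADP-ribose and oxidative stress that also responds to warmth, ran from 8.36 CPM in WT_beta 401 to 18.7 in KO_alpha3 50. Its slope of -0.19 ± 0.07 passed narrowly (edgeR adjusted p = 0.0347), was positive within KO_beta (0.18), and no longer passed in 19 of 31 alternative analyses, with 1 more turning its sign. Trpm7 (chromosome 2, 126791565 to 126876230, - strand) supplies magnesium, calcium and zinc to most cell types. It was the most even member, at 72.7 ± 5.53 CPM (SD, n = 16), with a coefficient of variation of 7.60%, a slope of 0.04 ± 0.03 and an adjusted p of 0.359 by edgeR. Trpc6 (chromosome 9, 8544142 to 8680741, + strand), a channel opened by diacylglycerol, lay at 0.900 ± 0.347 CPM on 10 to 37 reads per library. Its slope was the only one of the 8 above 0.1, 0.30 ± 0.12, and missed the threshold (edgeR adjusted p = 0.0539); it passed in 11 of its 31 alternative analyses.

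Trpa1 and Trpm8, the channels for pungent irritants and for cold and menthol, were close to the limit of detection. Trpa1 (chromosome 1, 14872648 to 14918862, - strand) had 121 reads in all 16 libraries and a level of 0.315 ± 0.177 CPM (SD, n = 16), from 0 reads in WT_alpha3 79, which allows a level of up to 0.148 CPM, to 17 in KO_beta 411. Its slope of -0.39 ± 0.24 did not pass (edgeR adjusted p = 0.190). Trpm8 (chromosome 1, 88277661 to 88389293, + strand) had 32 reads in all, at most 6 per library, and 0 reads in 6 libraries, where a count of 0 allows a level of up to 0.119 to 0.143 CPM. An antisense gene, 4930453O03Rik, overlaps its exons, and the 32 reads cannot be assigned to a strand. No difference between groups in Trpm8 was detectable at this depth.

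In the channel family as a whole, more genes fell than rose in earlier ganglia, while the share that passed in either direction was close to that of all genes. Of 28 family genes 22 passed the filter and were tested, 10 were lower and 1 higher with the globin ratio, where 26.1% of all genes were lower and 20.5% higher (46.6% in all). The median slope was -0.19, against -0.01 over all genes. Among those outside the 9 members, the TRPC channels Trpc4 (-0.73 ± 0.13) and Trpc7 (-0.81 ± 0.16), the sodium-conducting Trpm4 (-0.14 ± 0.04) and the lysosomal channel Mcoln1 (-0.15 ± 0.03) fell. Trpc5, which pairs with Trpc1 and Trpc4, rose (0.56 ± 0.18), from 2 to 33 reads per library. Those not passing ran from -0.36 for Pkd2l1 to 0.15 for Trpm6, and included Trpm5 (-0.22 ± 0.11), Trpv3 (-0.27 ± 0.16), Trpv4 (0.13 ± 0.14), Pkd2 (-0.02 ± 0.05) and Pkd2l2 (-0.12 ± 0.07). Trpv3 begins 6.15 kb beyond the end of Trpv1 on the same strand of chromosome 11. Its level was 0.523 ± 0.238 CPM (SD, n = 16).

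**Figure D3:**
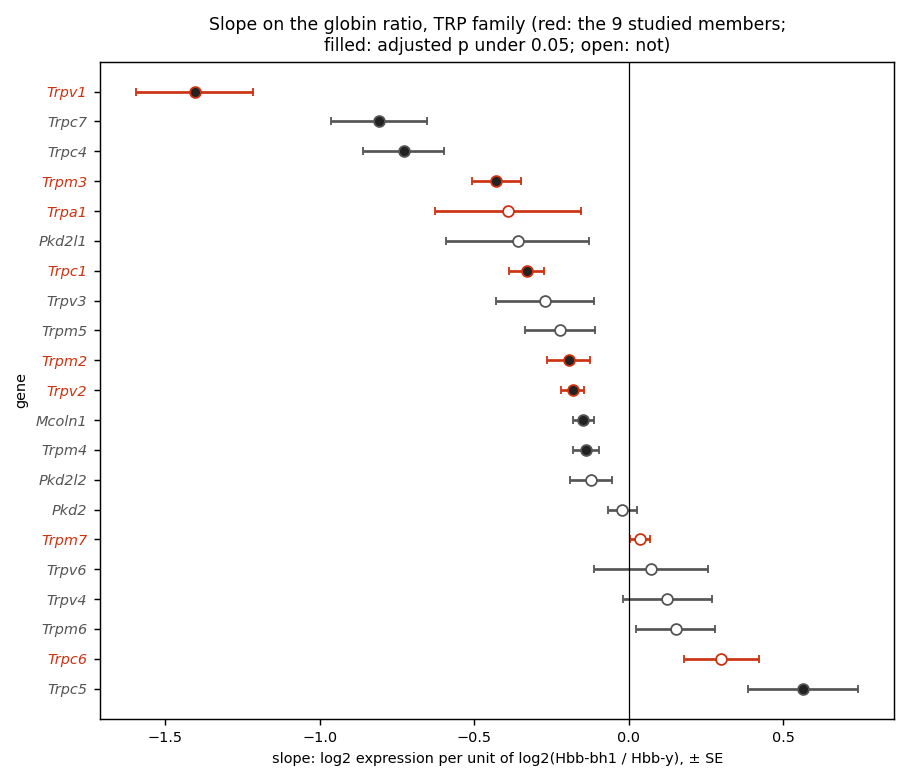
Slope on the globin ratio (x axis, log2 expression per unit of the log2 ratio of Hbb-bh1 to Hbb-y, with SE) for family genes that were tested (y axis, members in red), filled where the edgeR adjusted p passed. Trpv1 lies at -1.41, farthest to the left, and Trpc5 at 0.56, farthest to the right.

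Proteins that regulate TRP channels or act with them moved in the same direction more often than not. Among 50 such genes 48 were tested, 29 were lower and 2 higher in earlier ganglia, with a median slope of -0.14. Over all genes 26.1% were lower and 20.5% higher, with a median of -0.01. The lowest p-values among those that fell belonged to Itpr3, an inositol trisphosphate receptor of the endoplasmic reticulum (-0.30 ± 0.03), Pirt, a membrane protein that binds phosphoinositides and enhances Trpv1 and Trpm8 currents (-0.53 ± 0.07), and Stim1, the calcium sensor of store-operated entry (-0.30 ± 0.04). Homer3, a scaffold protein (0.17 ± 0.04), and Plcg2, a phospholipase C (0.24 ± 0.09), rose.

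Many markers of sensory neurons and of their progenitors also moved with the ratio, on which 46.6% of all genes passed. Of 25 nociceptor and thermoreceptor genes 20 were lower and 1 higher (median -0.35), among them Tac1, the substance P precursor, at -1.33 ± 0.13, Gfra3, the artemin receptor, at -0.41 ± 0.05, and the transcription factor Pou4f2 at -0.54 ± 0.06, while Sst, somatostatin, rose by 0.82 ± 0.29. Runx1 fell by 0.73 ± 0.09 (log2 per unit of the ratio) and is named here after its value was seen. All 29 cell cycle genes and 12 of 19 progenitor and Notch genes rose (medians 0.57 and 0.57), including the Notch ligand Dll3 (1.07 ± 0.16). Of 22 pan sensory genes 11 were lower and 3 higher, of 16 mechanoreceptor and proprioceptor genes 10 and 3, and of 18 glial genes 11 and 2. The list medians were -0.11, -0.26 and -0.26 in that order. Of markers of neighbouring tissue, 5 of 15 spinal cord genes rose and 0 fell by edgeR, and 3 of 12 sympathetic genes rose and 1 fell. Over all genes 20.5% rose and 26.1% fell. Most genes in both lists leaned upwards: 15 spinal cord and 11 sympathetic genes had a positive slope, with medians of 0.66 and 1.24. DESeq2 called more of them, 7 spinal cord and 11 sympathetic genes. Transcripts of both lists thus tended to be higher where the ratio was higher. The summed level of the spinal cord list was 16.4 to 37.9 CPM in KO_alpha3, 15.9 to 39.9 in KO_beta, 20.3 to 129 in WT_alpha3 and 23.9 to 131 in WT_beta. That of the sympathetic list was 199 to 392, 289 to 387, 257 to 784 and 267 to 525 CPM in the same order of groups. Among the defining markers at 0 reads were Olig2 and Mnx1 of the spinal cord in 2 libraries each and Slc6a2 of the sympathetic list in 2 libraries. With the mean of the sympathetic list added to the fit, the slope of Trpv1 was -1.37 ± 0.24, and with that of the spinal cord list -1.35 ± 0.22.

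**Figure D4:**
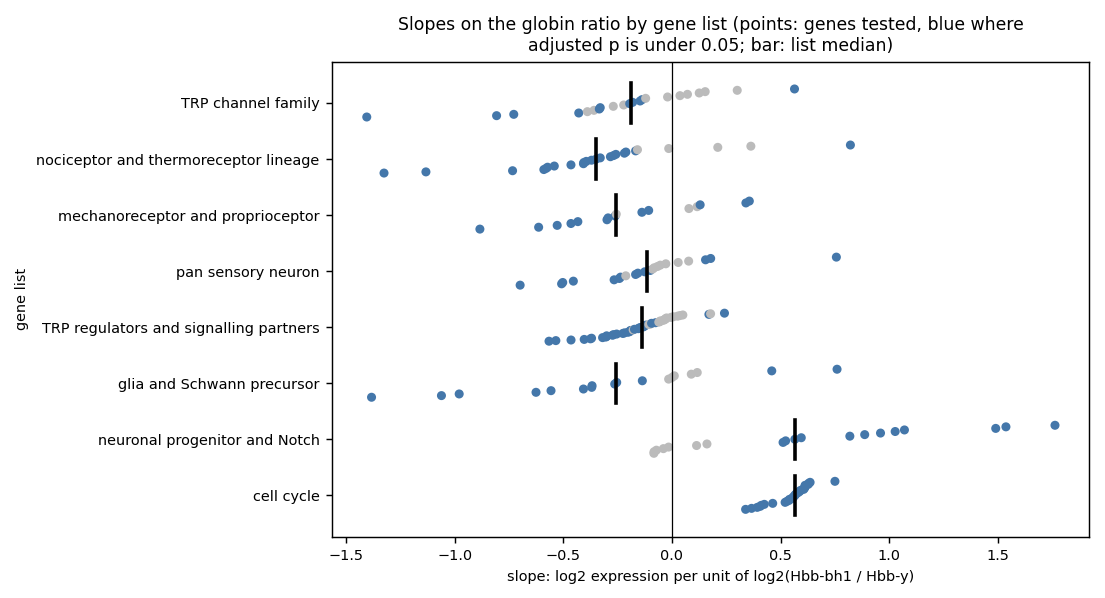
Slope on the globin ratio (x axis) of each gene tested in 8 gene lists (y axis), blue where the edgeR adjusted p passed, grey where it did not, with a bar at the list median. The nociceptor list lies mostly to the left (median -0.35) and all 29 cell cycle genes lie to the right (median 0.57).

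How many members passed depended on which libraries and which other measures of the tissue were in the fit. The 4 wild types highest in the summed sympathetic list were WT_alpha3 45 and 79 and WT_beta 399 and 401. Without them 3 members passed and Trpv1 stood at -1.52 ± 0.17. By the spinal cord list WT_beta 415 (65.5 CPM) lay above WT_beta 399 (37.1 CPM). The 4 left out were also the wild types of highest globin ratio, -6.04 to -4.10 against -6.92 to -6.62 in the others. Other tissue and maturity cannot be told apart in this fit. With the mean of the pan sensory list in the fit, added after seeing the data, 1 member passed, Trpv1 at -1.05 ± 0.29 (edgeR adjusted p = 0.0356). With the mean of the cell cycle list in the fit, 0 of 8 members and 1 of 15641 genes passed, and Trpv1 stood at -0.79 ± 0.61 (edgeR adjusted p = 0.828). That mean itself ran with the ratio, at 4.75 log2 CPM in KO_beta 411, of lowest ratio, and 5.96 in KO_alpha3 81, of highest. The SE of Trpv1 was 0.19 without it. This fit therefore cannot tell the ratio from the cell cycle mean. Without KO_alpha3 81 and WT_alpha3 79, the libraries of highest ratio, 4 members passed and Trpv1 stood at -1.11 ± 0.22. Without the 3 libraries low in Hoxa10, 6 members passed: Trpm7 joined the others by rising (0.11 ± 0.04, edgeR adjusted p = 0.0388). With Hoxa10 in the fit the same 6 passed, and the slopes of Trpm3 (-0.73 ± 0.09), Trpc1 (-0.54 ± 0.07), Trpm2 (-0.47 ± 0.09), Trpv2 (-0.33 ± 0.04) and Trpm7 (0.13 ± 0.04) were each over 1.5 times as large. The part of body level in these slopes was not tested beyond these fits. In 28 of 31 alternatives the count of all genes passing stayed within 1.5-fold of the 7296 of the main fit. The 3 that moved further were the fits without the 4 wild types, with the pan sensory mean and with the cell cycle mean. A passing gene was thus common in the other fits too. No age finer than the label of embryonic day 13.5 was used here.

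In KO_alpha3 against the 8 wild types, 0 of the 8 members tested passed. Of all genes 0.00639% passed, which is 1 gene, Kpna4 itself. Trpv1 was at 58.0 ± 68.0 CPM in KO_alpha3 (SD, n = 4) and 82.5 ± 52.3 CPM in the 8 wild types (SD), a log2 fold change of -0.51 ± 0.81 (SE; edgeR adjusted p = 0.867). Trpc6 had the lowest unadjusted p of the members, 0.159 by edgeR, with 0.721 ± 0.111 CPM against 0.998 ± 0.454. No member had an unadjusted p under 0.05, and DESeq2 also called 0 members. The other fold changes, in log2, were -0.32 ± 0.30 for Trpm3, -0.19 ± 0.23 for Trpc1, -0.14 ± 0.57 for Trpa1, 0.19 ± 0.19 for Trpm2, 0.07 ± 0.13 for Trpv2 and 0.06 ± 0.07 for Trpm7. The levels of the knockouts and the wild types overlapped for all 9 members.

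With the globin ratio added to the fit, the error of Trpv1 was smaller and again 0 of 8 members passed. Trpv1 then stood at -0.38 ± 0.39 in KO_alpha3 (edgeR adjusted p = 0.694), where the SE had been 0.81. Trpc1 went to -0.03 ± 0.12 and Trpm3 to -0.16 ± 0.19, while Trpc6 was at -0.57 ± 0.28 with the lowest unadjusted p, 0.0603 by edgeR. The width of these errors leaves a wide span of changes undetectable in Trpv1: 1 library, KO_alpha3 50, took its fold change from -0.51 to -1.62 when it was left out (edgeR adjusted p = 0.294), and the count of all genes that passed from 1 to 124. Without the 3 libraries low in Hoxa10, the fold change of Trpv1 in KO_alpha3 was -0.37 ± 0.63.

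In KO_beta, the knockout of the 3′UTR of importin beta 1, 0 of 8 members passed and 0% of all genes did. Every fold change but that of Trpc6 was positive, and all but that of Trpv2 were smaller than their SE. Trpv1 lay at 111 ± 16.9 CPM (SD, n = 4), a log2 fold change of 0.43 ± 0.78 (edgeR adjusted p = 0.934). Trpv2, with 55.2 ± 2.86 CPM against 47.6 ± 9.28 in the 8 wild types, had the lowest unadjusted p, 0.125 by edgeR, at 0.21 ± 0.13. The others were 0.44 ± 0.54 for Trpa1, 0.20 ± 0.22 for Trpc1, 0.13 ± 0.30 for Trpm3, 0.08 ± 0.19 for Trpm2, 0.03 ± 0.07 for Trpm7 and -0.17 ± 0.31 for Trpc6. No member had an unadjusted p under 0.05, and DESeq2 called 0 members. With the globin ratio in the fit Trpv1 was at 0.06 ± 0.38, Trpc1 at 0.07 ± 0.12 and Trpm3 at -0.07 ± 0.19. Without the 3 libraries low in Hoxa10 Trpv1 was at 0.19 ± 0.57, and 0 members passed in either knockout. This comparison and that of KO_alpha3 share the same 8 wild-type libraries.

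**Figure D5:**
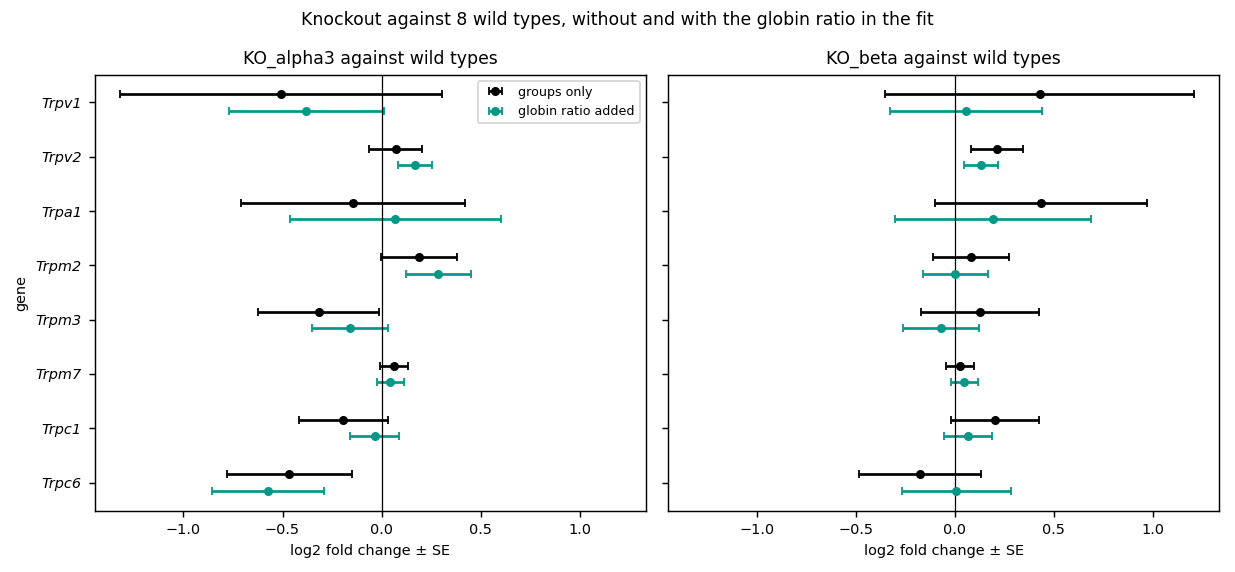
Log2 fold change ± SE (x axis) of the 8 members tested (y axis) in KO_alpha3 (left) and KO_beta (right) against the same 8 wild types, in the fit with groups only (black) and with the globin ratio added (green). For Trpv1 the SE is 0.81 and 0.78 with groups only and 0.39 and 0.38 with the ratio.

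Between the wild types of the lines, 0 of 8 members passed, where 0.0192% of all genes did (3 genes). Trpv1 was at 89.0 ± 27.7 CPM in WT_beta and 76.0 ± 74.2 CPM in WT_alpha3 (SD, n = 4 each), a log2 difference of 0.23 ± 0.95 (edgeR adjusted p = 1.00). The difference between the knockout effects, each against its own wild types, was tested directly: 0 of 8 members and 0.00639% of all genes passed. For Trpv1 it was 0.71 ± 1.34 (edgeR adjusted p = 0.996). The lowest unadjusted p of any member was 0.0825 in the comparison of wild types and 0.171 in the difference of effects, and DESeq2 called 0 members in both.

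The genes whose levels ran most like those of a member were found by Pearson's r of log2 CPM over the 16 libraries, among genes averaging at least 1 CPM (13411, or 13412 for Trpa1 and Trpc6), as a description; the points share library depth and the globin ratio. Trpv1 ran closest with Entpd2, an ectonucleotidase that breaks down ATP outside the cell (r = 0.995), Cpt1a, the carnitine palmitoyltransferase of fatty acid import into mitochondria (r = 0.990), and Ndrg1 (r = 0.987). For Trpc1 they were the potassium channel Kcna2 (r = 0.987), Pcnxl2 and Bnc2. Trpm3 ran closest with the kinase Camk1d (r = 0.968), Rgs17, and the mechanically gated channel Piezo2 (r = 0.958), and Trpv2 with Tcf25 (r = 0.974), Irgq and B4galt5. The closest to Trpm7 was Pik3c2a (r = 0.908), to Trpm2 Mdga1 (r = 0.911), to Trpa1 Tgm5 (r = 0.849) and to Trpc6 Nlrp1a (r = 0.828). Among the members themselves, r was 0.943 for Trpv1 and Trpc1, 0.901 for Trpm3 and Trpc1, 0.856 for Trpv1 and Trpm3, 0.797 for Trpv1 and Trpv2, and -0.518 for Trpv1 and Trpm7.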

How the data were processed

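PolyA RNA of lumbar dorsal root ganglia was sequenced in 16 libraries, grouped by the genotype in their titles. Per gene symbol the authors deposited raw read counts, and a normalized signal that equals the count times 1 constant per library and was used only to check that. Alignment to mm10 and counting are recorded in the submitters' processing notes by tool names only, TopHat2 2.0.10 and HTSeq 0.6.1p1 among them. For annotation and strand setting: not given in the sources used here. Counts were tested in R 4.3.3 with edgeR 4.0.16: TMM, filterByExpr (minimum count 10, minimum total 15; 15641 genes kept), quasi-likelihood, 2-sided, Benjamini-Hochberg over all genes tested at 0.05. Both knockouts met the 8 wild types in a 3-group fit. A 4-group fit compared the wild types of the lines and the knockout effects with each other, and that fit plus the globin ratio gave the slopes. Alternatives included DESeq2 1.42.0. Likeness used log2 CPM with a prior count of 2. Coordinates and exon lengths came from GENCODE M21 (GRCm38, the build mm10).

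The members, the gene lists and the alternatives were chosen with earlier results of these data known. Named genes were the 9 members, family genes of at least 0.5 CPM, up to 3 rising and 3 falling genes per list by p, and the 3 genes most like each member. The text names part of these, and some named genes are not reported here. On simulated data of the same library sizes, 200 genes per comparison were changed by 1 on the log2 scale. The tests recovered 96% (KO_alpha3), 96% (KO_beta), 93% (wild types) and 81.5% (difference of effects) of them, and 96% of 200 slopes of 0.5. The simulated spread came from the fit with the globin ratio, and only genes of higher level were changed. These shares therefore do not describe fits without the ratio, where the SE of Trpv1 was 0.81 in KO_alpha3 and 0.78 in KO_beta. Nor do they cover the low levels of Trpc6, Trpa1 and Trpm8.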

Additional observations from a re-analysis of the deposited data

Results flagged for a closer look

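Within a group, a library counted as standing apart where its gap to the nearest other was a large share of the group's range, by Dixon's criterion at the 95% level. The criterion was applied 45 times, to the 9 members in each of the 4 groups and in the 8 wild types together, and chance alone marks about 1 in 20 groups. In KO_alpha3, library 50 held 0.268 CPM of Trpm8, against 0 to 0.0442 CPM in the other 3, which is 6 reads against 0 or 1. In WT_beta, library 401 held 10.4 CPM of Trpm3, against 13.7 to 14.0 CPM in the others. In KO_beta, library 402 held 1.18 CPM of Trpc6, against 0.753 to 0.810 CPM in the others.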

How the results depend on the processing

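No paired analysis was possible because the groups share no library number. In all alternatives run, 0 members passed in either knockout, between the wild types or in the difference of effects. In the last 2 of these, the 7 members other than Trpv1 turned in sign in 52 of 361 alternatives, with 0 passing. Genes passing by DESeq2 were 128 in KO_alpha3, 1 in KO_beta, 32 between the wild types and 6 in the difference of effects. The latter had 2 without a filter, and 2 without the 4 wild types highest in the sympathetic list. Between the wild types 5 genes passed with a Y-linked covariate and 5 with the globin ratio. Leaving out each library in turn gave 1 to 124 genes in KO_alpha3 (124 without KO_alpha3 50), 2 to 7 between the wild types (7 without KO_alpha3 81) and 1 to 3 in the difference of effects (3 without KO_alpha3 50). For the slopes it gave 5895 to 7792 genes, 4 to 6 members and -1.60 to -1.22 for Trpv1. The slopes counted 4261 genes and 3 members without the 4 wild types highest in the sympathetic list. They counted 1684 genes and 1 member (Trpv1) with the pan sensory mean, where Trpm7 turned to -0.026, and 1 gene and 0 members with the cell cycle mean. In the last, Trpv2 turned to 0.12, Trpm2 to 0.27, Trpm7 to -0.10 and Trpc6 to -0.13. The cell cycle mean ran with the ratio itself, and the cause of these turns was not tested.

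Signs that turned in the knockouts belonged to values that never passed. The 4 wild types highest in the sympathetic list were also those of highest globin ratio, so other tissue and maturity cannot be told apart there. Without these 4 libraries, KO_alpha3 gave -0.11 for Trpv2 and -0.054 for Trpm2. KO_beta then gave -0.18 for Trpv1, -0.17 for Trpm2, -0.19 for Trpm3, -0.081 for Trpc1 and 0.087 for Trpc6. With the Y-linked covariate, KO_beta gave -0.18 for Trpv1, -0.042 for Trpm2 and -0.16 for Trpm3. Against its own wild types Trpa1 was at 0.56 in KO_alpha3 and -0.014 in KO_beta. With the globin ratio, Trpa1 was at 0.070 in KO_alpha3, and Trpm3 at -0.071 and Trpc6 at 0.0066 in KO_beta. Without the 3 libraries low in Hoxa10, Trpc6 was at 0.11 in KO_beta. By library size alone Trpm7 was at -0.0048 in KO_beta. Leaving out 1 library gave, in KO_alpha3, -0.57 to 0.042 for Trpa1 and -0.014 to 0.14 for Trpm7, and in KO_beta -0.021 to 0.19 for Trpm2, -0.073 to 0.31 for Trpm3 and -0.011 to 0.048 for Trpm7. Between the wild types Trpv1 ran from -0.15 to 0.77 that way, with -0.30 without the 4 libraries, -0.15 without KO_alpha3 81 and WT_alpha3 79, -0.083 without the 3 libraries low in Hoxa10, and 3.67 with the Y-linked covariate. Its difference of effects turned to -3.57 with that covariate and to -0.093 with the globin ratio. Y-linked reads were in all WT_alpha3 libraries and near 0 in WT_beta, so sex and line cannot be told apart there. Trpa1 (121 reads) and Trpm8 (32 reads) are limited by depth.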

Other observations

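Markers of other tissues in or around the ganglion were counted on the globin ratio in the same way, where 46.6% of all genes passed. Of 8 erythroid genes tested, 5 rose and 0 fell, and these include both globins of the ratio itself. The others were Hba-x, an embryonic α-like globin (1.43 ± 0.20), the erythroid factor Klf1 (0.96 ± 0.31) and the anion exchanger Slc4a1 (0.99 ± 0.30). None of 15 macrophage, 17 skeletal muscle or 10 liver genes passed by edgeR (2, 0 and 1 had an unadjusted p under 0.05), and DESeq2 called 1, 0 and 0 of them. Of these genes 15, 12 and 10 had a positive slope. The endothelial adhesion gene Cdh5 and the pericyte receptor Pdgfrb were the 2 of 14 vascular genes that fell (-0.16 ± 0.05 and -0.11 ± 0.04). Of 15 fibroblast and meninges genes 3 rose and 3 fell, of 12 epidermal genes 3 rose and 2 fell, and of 5 melanoblast genes 2 fell, Kit (-0.55 ± 0.05) and Tyrp1 (-1.16 ± 0.29).

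In the knockouts, the lists around the channels stayed below the threshold by edgeR. Over all 15641 genes, 1696 had an unadjusted p under 0.05 by edgeR in KO_alpha3 and 349 in KO_beta, and DESeq2 called 128 and 1. Among 25 nociceptor and thermoreceptor genes, 0 passed and 3 had an unadjusted p under 0.05 in KO_alpha3, where DESeq2 called 3. In KO_beta 0 passed and 0 had an unadjusted p under 0.05. Among 48 regulators and partners of TRP channels, 0 passed in either, with 4 and 0 genes at an unadjusted p under 0.05 and 0 called by DESeq2. For the 22 channel genes the counts at an unadjusted p under 0.05 were 1 in KO_alpha3 and 0 in KO_beta, with 0 called by either tool. Median log2 fold changes in KO_alpha3 were -0.14, -0.01 and -0.18 for these lists, and 0.17, 0.09 and 0.05 in KO_beta, against -0.0059 and -0.0026 over all genes.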
